A study of Mus musculus with 24 samples.

Results

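The 4 Tsc1-Cre+ mice taken on day 8, the day that the study places at seizure onset, were compared with the 4 Tsc1-Cre- control mice taken on the same day. They were chosen by their sample titles and make up 8 of the 24 mice of the series, in which hippocampal RNA was sequenced in 6 groups of 4. All 8 mice were adults homozygous for a floxed Tsc1 allele, strain Tsc1f/f-Tg (Camk2a-CreERT2+) for the day 8 mice and Tsc1f/f-Tg(Camk2a-CreERT2-) for their controls, and all 8 had received tamoxifen on 4 days and no rapamycin. The CreERT2 transgene joins Cre to an estrogen receptor domain that tamoxifen activates, and it is driven by Camk2a regulatory sequence, so that the deletion was directed to CAMK2A-expressing, mostly excitatory neurons and spared the glia, vessels and most interneurons of the same tissue. The remaining groups were Tsc1-Cre+ mice on days 4, 6 and 13 and rapamycin-treated Tsc1-Cre+ mice taken on day 13. The controls were littermates that lacked the transgene, so the effect of deletion and that of carrying and activating Cre cannot be told apart in this comparison. Mice of each group are named by their title letters, A to D, which name different animals in the 2 groups, and values per mouse are given in that order. By the numbers in the deposited file names, mice A and B of both groups came from 1 series of animals and mice C and D from another.

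TSC1 and TSC2 form the complex that holds back the kinase mTORC1, which senses amino acids at the lysosome and growth factors at the cell surface. When the complex is lost, mTORC1 stays active and drives protein, lipid and nucleotide synthesis, in part through the transcription factors ATF4, for amino acid supply, and SREBP, for sterols. ATF4 is also the common end point of the integrated stress response, and the TFEB family controls lysosomal genes. In the hippocampus, seizures are known to induce immediate early genes, neurotrophins and neuropeptides in neurons and intermediate filaments in astrocytes.

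Expression is given as CPM, the count of a gene relative to the total of its library scaled with the TMM factors of edgeR, and a gene was called at a Benjamini-Hochberg adjusted p under 0.05 in edgeR's quasi-likelihood test with an absolute log2 fold change over 0.5. The total counts were 50460565 to 61083014 per mouse (median 56058148), no gene took more than 3.53% of a library, and mitochondrial genes took 3.44% to 5.01%. With 4 mice against 4, an exact permutation test of a single value cannot go below p = 0.0286.

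The targeted gene was lower in every day 8 mouse. Tsc1 (ENSMUSG00000026812.16, GRCm38 chr2:28641228-28691167) stood at 111, 104, 107 and 104 CPM in the controls and at 67.9, 76.8, 69.6 and 76.8 CPM in the day 8 mice. The groups did not overlap, with means of 107 ± 3.53 CPM (SD, n = 4) and 72.8 ± 4.72 CPM. Tsc1 fell by 0.55 on the log2 scale (SE 0.06, edgeR adjusted p = 0.000292; exact permutation test of the CPM, two-sided, p = 0.0286), and it was called without any 1 of the 8 mice (largest adjusted p 0.00229). In bulk RNA, fewer cells of a type and less RNA per cell cannot be told apart, here or for any cell type below.

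Of 25085 genes tested, 1001 (3.99%) were called on day 8, 539 of them higher (2.15%) and 462 lower (1.84%). The 8 mice did not overlap between groups in 496 of the 539 and in 442 of the 462, against 20.2% of all genes tested. The genes were called on these same 8 mice, so this adds no separate evidence for the calls. Among the genes called higher, 183 changed more than 2-fold and 30 more than 4-fold. Among those called lower, 94 changed more than 2-fold and 3 more than 4-fold. Protein-coding genes made up 87.2% of the genes called higher and 51.3% of those called lower, against 63.1% of all genes tested. The median log2 fold change of all genes was -0.03. The number of calls depended on single mice: it was 586 without day 8 mouse A and 1491 without day 8 mouse D, and between 669 and 1204 without any other mouse. Calls of lower genes moved most, to 229 without day 8 A, 281, 289 and 261 without control B, C and D, and 729 without day 8 D. Within the 2 animal series, 445 genes were called from mice A and B alone and 17 from mice C and D alone, with 2 mice a side. No gene passed the test of a difference in the day 8 effect between the series (edgeR, 0 of 25085 at an adjusted p under 0.05, 0%; smallest adjusted p 0.3; 1047 genes, 4.17%, at an unadjusted p under 0.05).

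**Figure D1:**
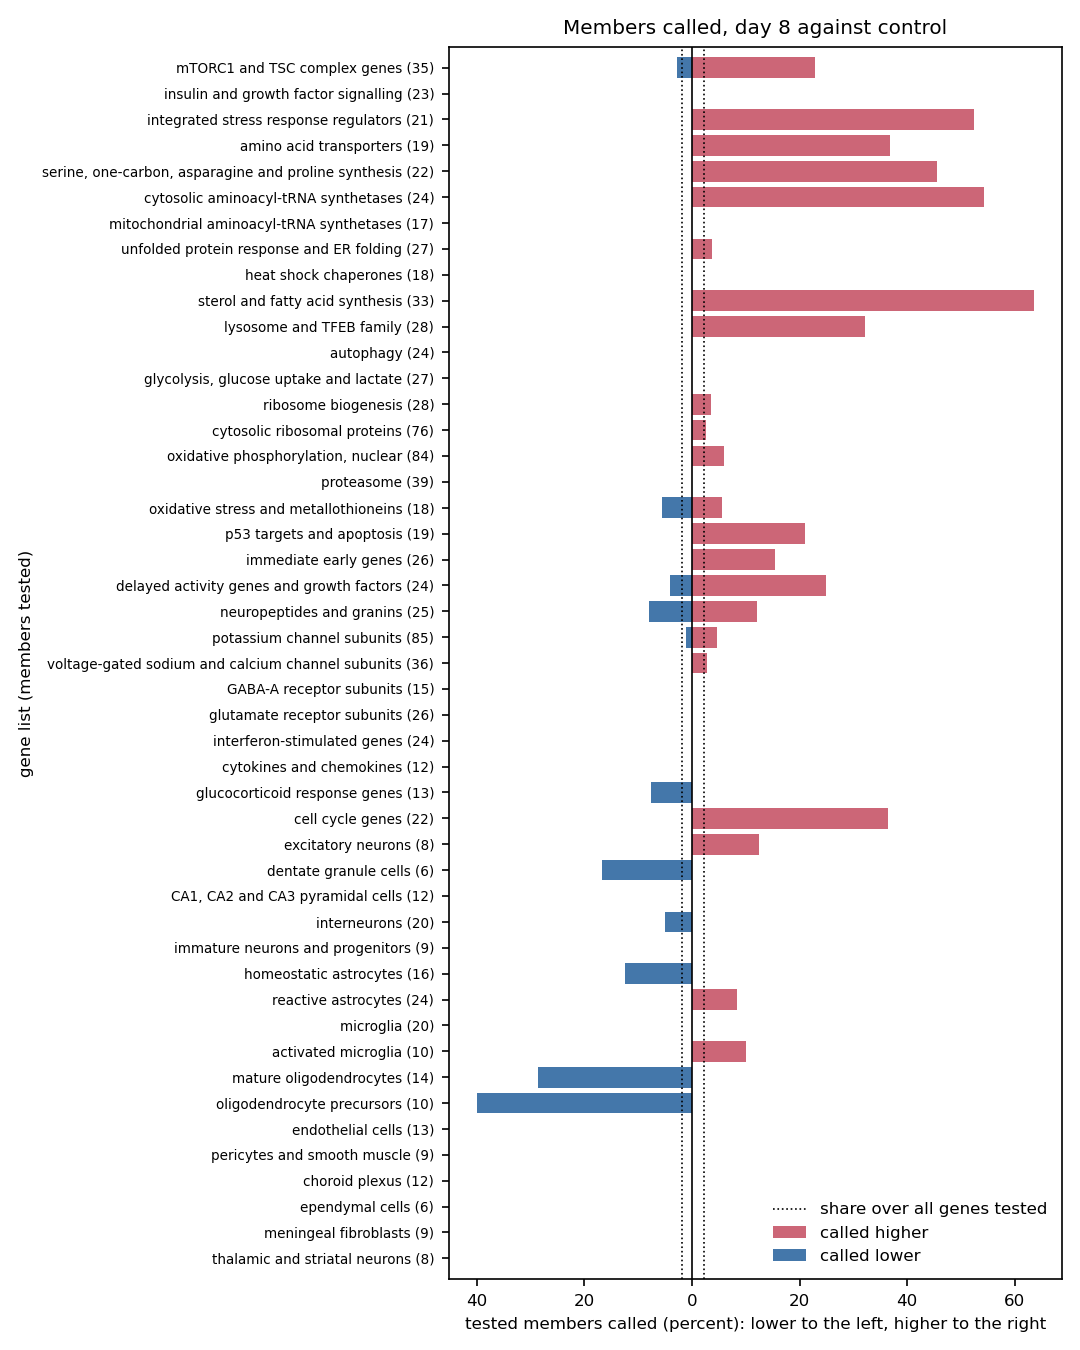
Share of the tested members of each gene list called lower (blue, to the left) or higher (red, to the right) on day 8 against control, in percent, with the number tested in brackets. The dotted lines mark the shares over all 25085 genes, 1.84% lower and 2.15% higher, and the sterol, aminoacyl-tRNA synthetase and stress response lists reach over 50%.

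The members of the mTORC1 pathway that were called higher encode inhibitors, a nutrient sensor, and Rag GTPases with proteins that act with them at the lysosome. Of 35 tested members of the pathway, 8 were called higher and Tsc1 lower, and the median log2 fold change was 0.08. Eif4ebp1, which encodes the translation repressor 4E-BP1 that mTORC1 inactivates, stood at 1.14, 0.893, 1.24 and 1.17 CPM in the controls and at 9.48, 4.92, 13.4 and 4.70 CPM on day 8. Every day 8 mouse was above every control, A and C lay well above B and D, and the log2 fold change was 2.87 (SE 0.33, edgeR adjusted p = 0.000562). Sesn2, a leucine sensor that restrains mTORC1 and an ATF4 target, was at 10.7 to 11.9 CPM in the controls and at 50.8, 42.6, 50.4 and 35.3 CPM on day 8, a rise of 2.01 on the log2 scale (SE 0.11, edgeR adjusted p = 7.86e-06).

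The folliculin complex, which acts on the Rag GTPases at the lysosome, rose as well. Flcn, its catalytic subunit, went from 43.2 to 46.7 CPM in the controls to 68.9 to 75.6 CPM on day 8 (log2 fold change 0.65, edgeR adjusted p = 6.52e-05), and its partner Fnip1 from 98.3 to 102 CPM to 140 to 176 CPM (0.68, adjusted p = 0.000317). The Rag GTPase genes Rraga (0.56) and Rragd (0.51), the Ragulator subunit Lamtor3 (0.52) and Akt1s1, which encodes the mTORC1 inhibitor PRAS40 (0.53), were the other members called, and Rragc at 0.34 was under the fold threshold. None of the 23 tested genes of insulin and growth factor signalling was called (median log2 fold change -0.06), with Insr, the insulin receptor, at 114 to 123 CPM in controls and 107 to 118 CPM on day 8.

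Regulators of the integrated stress response were higher in every day 8 mouse. Of 21 tested, 11 were called higher and none lower, with a median log2 fold change of 0.73 against -0.03 over all genes. Atf4 (ENSMUSG00000042406.8, GRCm38 chr15:80255184-80257541), the transcription factor at the centre of the response, was at 52.4, 48.2, 56.2 and 54.0 CPM in the controls and at 177, 126, 202 and 121 CPM on day 8. The groups were far apart, and day 8 mice A and C lay above B and D, with a mean of 52.7 ± 3.37 (SD, n = 4) against 156 ± 39.5 CPM (log2 fold change 1.57, SE 0.15, edgeR adjusted p = 0.00021).

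Several feedback and effector genes below ATF4 were called as well. Trib3, a pseudokinase that feeds back on the pathway, had 0.205, 0.337, 0.271 and 0.155 CPM in the controls and 4.86, 1.43, 6.13 and 1.48 CPM on day 8, a log2 fold change of 3.81 (SE 0.54, edgeR adjusted p = 0.00159). Chac1, which degrades glutathione, went from 2.02, 1.77, 2.32 and 2.35 CPM to 31.2, 18.9, 31.5 and 16.1 CPM (log2 fold change 3.53, SE 0.23, adjusted p = 2.06e-05). Stc2, a secreted glycoprotein, rose to nearly the same level in the 4 day 8 mice, 9.74, 10.3, 12.8 and 10.0 CPM against 2.35 to 3.44 CPM in the controls (log2 fold change 1.98, adjusted p = 4.11e-05). Also called higher were Ddit3, which encodes the pro-apoptotic factor CHOP (log2 fold change 1.77), the related factor Atf5 (adjusted p = 0.0019), the phosphatase subunit Ppp1r15a (0.73), Cebpg (0.61) and the mTORC1 inhibitor Ddit4 (0.57). Ddit3 overlaps Mars on the other strand, and Mars also rose, so the reads of the 2 cannot be kept apart with certainty. Among the other genes named, Akt1s1, Rragc, Atf5, Ppp1r15a, Cebpg, Aars, Cars, Hmgcs1, Jun, Bdnf, Cdkn1a, Top2a, Gpr17, Bmp4, Nos1, Fst, BC030499, Shmt2, Psph, Aldh1l2, Fdps, Ctsl, Ndufb6, Cox5a, Rps2, Kcnq1, Bax, Cnp, Pdgfra, Mndal and Ifi203 also overlap another gene, and their values carry the same uncertainty.

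Genes of the endoplasmic reticulum (ER) gave 1 call. Of 27 tested genes of the unfolded protein response and ER folding, 1 was called higher (3.7%, against 2.15% of all genes tested). It was Herpud1, an ER-associated degradation factor that is also an ATF4 target. Herpud1 was at 25.1, 27.7, 28.2 and 28.2 CPM in the controls and 59.7, 47.0, 73.5 and 43.6 CPM on day 8 (log2 fold change 1.04, edgeR adjusted p = 0.00129). Hspa5, which encodes the ER chaperone BiP, was at 203, 206, 193 and 154 CPM in the controls and 241, 162, 272 and 154 CPM on day 8. Its groups overlapped, and it did not pass the test (log2 fold change 0.13, SE 0.17, adjusted p = 0.655). No heat shock chaperone of 18 was called (median 0.28), but 3 were without day 8 B, 2 without day 8 D and 1 without control A, and the count of 1 for the ER list was 2 without day 8 B or D.

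Genes of amino acid import and synthesis were higher in the same mice. Of 19 tested amino acid transporters, 7 were called higher and none lower (median log2 fold change 0.29). Slc7a3, a cationic amino acid transporter for arginine and lysine, was at 2.69, 2.92, 3.69 and 2.60 CPM in the controls and at 45.4, 24.7, 55.4 and 23.3 CPM on day 8. This was a 12.4-fold rise with no overlap (log2 fold change 3.64, SE 0.29, edgeR adjusted p = 6.56e-05). Its relative Slc7a1 went from 38.1 to 43.5 CPM to 90.6 to 122 CPM (1.38, adjusted p = 2.06e-05), the leucine importer Slc7a5 from 31.3 to 37.2 CPM to 64.3 to 99.5 CPM (1.34, adjusted p = 0.000198), and the neutral amino acid transporter Slc1a4 from 42.2 to 49.6 CPM to 83.1 to 133 CPM (1.28, adjusted p = 0.000292).

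Among 22 tested genes of serine, one-carbon, asparagine and proline synthesis, 10 were called higher and none lower (median log2 fold change 0.46). Asns (ENSMUSG00000029752.12, GRCm38 chr6:7675169-7693254), asparagine synthetase, was at 58.1, 55.6, 57.0 and 55.7 CPM in the controls and at 213, 158, 233 and 150 CPM on day 8, a 3.33-fold rise (log2 fold change 1.73, SE 0.13, edgeR adjusted p = 4.11e-05). The controls lay close together, and day 8 mice A and C lay above B and D. Mthfd2, a mitochondrial folate enzyme that adult tissue usually expresses at a low level, went from 4.44, 5.04, 5.22 and 4.57 CPM to 36.5, 23.98, 38.04 and 22.5 CPM (log2 fold change 2.65, adjusted p = 2.06e-05).

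The mitochondrial serine hydroxymethyltransferase Shmt2 (log2 fold change 1.84, edgeR adjusted p = 0.000653), the phosphoserine phosphatase Psph (1.80, adjusted p = 0.000278) and the proline synthesis enzyme Aldh18a1 (1.61, adjusted p = 0.000257) rose too. The first steps of serine synthesis moved less: Phgdh at 0.42 and Psat1 at 0.39 had adjusted p-values of 0.00422 and 0.00775 but stayed under the fold threshold. Aldh1l2, another mitochondrial folate enzyme, was spread widely over the day 8 mice, at 30.4, 8.83, 49.7 and 10.3 CPM against 5.75 to 6.88 CPM in the controls. Its call (log2 fold change 1.94, adjusted p = 0.0211) was lost without any 1 control or without day 8 A, with an adjusted p of up to 0.0675. Aldh1l2, Shmt2 and Psph each overlap another gene on the other strand.

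The cytosolic aminoacyl-tRNA synthetases, which load amino acids onto tRNAs, were higher as well. Of 24 tested genes 13 were called higher, all 24 had a log2 fold change above 0, and the median was 0.56. Gars, for glycine, was at 90.1, 89.3, 87.4 and 90.3 CPM in the controls and 230, 188, 250 and 184 CPM on day 8 (log2 fold change 1.25, edgeR adjusted p = 4.11e-05). Cars, for cysteine, had the largest change at 1.49, from 31.9 to 37.1 CPM to 78.0 to 117 CPM (adjusted p = 6.96e-05), and Aars, for alanine, went from 121 to 129 CPM to 236 to 381 CPM (1.31, adjusted p = 0.000317). Nars, for asparagine, stood at 129 to 139 CPM and then at 257 to 342 CPM (adjusted p = 6.11e-05). Day 8 mice A and C were the highest 2 mice in all 13 genes called. None of 17 mitochondrial synthetases was called, with a median of 0.00 and 8 of 17 above 0. The difference between the 2 lists was not tested.

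The proximal promoters of the called genes were searched for the C/EBP-ATF response element (CARE), the site at which ATF4 pairs with C/EBP factors, written TGATGNAA and read on both strands. In the 250 bases before the RefSeq start (GRCm38.p6), 7 of the 33 called genes of these 4 lists that have a sequence in the table (of 41 called) held it, 21.2%, compared with 27 of 369 (7.32%) of all genes called higher, 8 of 239 (3.35%) of those called lower and 363 of 13923 (2.61%) of all genes tested. Over all 32851 promoters of the table the share was 3.45%. Older gene symbols were matched through synonyms for the 33 only, and the 369 include members of these lists. The lists were chosen with earlier results known, and their members that were not called were not counted apart. The difference between these shares was not tested. The 7 shown are all of the called members of these 4 lists in which the motif was found. Capitals mark the 8 bases of the motif on the strand of the gene, 5′ to 3′, with up to 20 bases on either side.
Chac1, chr2:119351029-119351076, + strand: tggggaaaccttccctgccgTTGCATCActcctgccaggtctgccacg
Fgf21, chr7:45615602-45615649, - strand: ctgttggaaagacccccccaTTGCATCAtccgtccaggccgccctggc
Asns, chr6:7693210-7693252, - strand: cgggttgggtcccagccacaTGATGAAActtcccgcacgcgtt
Pycr1, chr11:120643824-120643871, - strand: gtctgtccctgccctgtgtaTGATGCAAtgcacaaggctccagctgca
Aars, chr8:111033710-111033757, + strand: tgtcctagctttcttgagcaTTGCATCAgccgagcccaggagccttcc
Gars, chr6:55037951-55037998, + strand: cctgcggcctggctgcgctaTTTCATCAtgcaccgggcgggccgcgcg
Tars, chr15:11399659-11399693, - strand: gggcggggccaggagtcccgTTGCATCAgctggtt

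The motif began 193 bases before the start in Chac1, 139 in Fgf21, 103 in Pycr1, 112 in Aars, 30 in Gars, 23 in Asns and 15 in Tars. These genes rose by 3.53 (Chac1), 1.73 (Asns), 0.89 (Pycr1), 1.31 (Aars), 1.25 (Gars) and 0.88 (Tars) on the log2 scale, and Fgf21, a secreted hormone with 0.0187, 0.0337, 0 and 0 CPM in the controls, was at 2.09, 0.313, 2.13 and 0.426 CPM on day 8; it was too low for the rule on named genes and is given only for its promoter. A match describes the letters of this window only. The full cAMP response element TGACGTCA, held by 1.55% of all promoters, was found in Ppp1r15a alone among these 33.

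Genes of sterol synthesis rose in all 4 day 8 mice by nearly the same amount. Of 33 tested genes of sterol and fatty acid synthesis 21 were called higher and none lower (63.6%), 32 had a log2 fold change above 0, and the median was 0.57. Sqle (ENSMUSG00000022351.14, GRCm38 chr15:59315077-59331192), squalene epoxidase, was at 45.4, 42.1, 47.9 and 45.7 CPM in the controls and 98.1, 102, 88.2 and 89.7 CPM on day 8. The 4 day 8 mice lay close together, each well above the controls (log2 fold change 1.06, SE 0.06, edgeR adjusted p = 1.04e-05). Mvd, mevalonate decarboxylase, went from 9.07, 9.34, 8.69 and 8.90 CPM to 22.01, 18.9, 19.5 and 21.4 CPM (log2 fold change 1.18, adjusted p = 1.63e-05).

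Hmgcs1, which makes HMG-CoA for the pathway, was at 132 to 142 CPM in the controls and at 277, 248, 278 and 276 CPM on day 8 (log2 fold change 0.99, edgeR adjusted p = 6.89e-06), the farnesyl diphosphate synthase Fdps rose by 0.99 from a low 4.16 to 5.11 CPM, and Insig1, which retains SREBP when sterols are plentiful, rose by 0.81. The factor's own gene Srebf2 (0.29) and the fatty acid enzymes Fasn (0.33) and Acaca (0.27) had adjusted p-values of 0.0292, 0.00374 and 0.00309 but stayed under the fold threshold, while the citrate lyase Acly was called at 0.57. The count of sterol genes called was never under 20 in the fits that left out 1 mouse. The median log2 range over the 4 day 8 mice was 0.215 in the 21 genes called and 0.147 over the controls, against 0.448 and 0.093 for the 13 aminoacyl-tRNA synthetases.

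A sterol response element, searched as TCACNCCAC on both strands, was present in 1.05% of all promoters and in 1 of the 14 called sterol genes with a sequence. It is shown in capitals, 137 bases before the start of the gene.
Hmgcs1, chr13:119690194-119690242, + strand: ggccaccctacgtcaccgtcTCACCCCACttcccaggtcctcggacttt

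Some genes of the list of lysosomal and TFEB family genes were called higher. Of 28 tested, 9 were called higher and none lower (median 0.35, 26 above 0), 6 without day 8 C. Gpnmb, a transmembrane glycoprotein of endosomes and lysosomes, was at 5.56, 6.57, 6.72 and 5.79 CPM in the controls and 49.4, 11.5, 95.2 and 23.9 CPM on day 8. The groups did not overlap, while the day 8 mice differed widely among themselves (log2 fold change 2.86, SE 0.52, edgeR adjusted p = 0.00552; up to 0.0246 without any 1 mouse). The hydrolase Gla (1.13, from 10.5 to 11.5 CPM to 17.98 to 33.3 CPM) was called too, as was the protease Ctsl (0.62, from 48.1 to 54.5 CPM to 64.96 to 94.8 CPM). Tfeb itself was at 8.83 to 11.8 CPM in controls and 9.42 to 11.1 CPM on day 8 (log2 fold change 0.00, adjusted p = 0.994), and none of 24 autophagy genes was called (median 0.07).

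In energy metabolism, protein turnover and ribosome assembly, 5.95% of nuclear oxidative phosphorylation genes and 3.57% of ribosome biogenesis genes were called higher. No proteasome or glycolysis gene was called, and the share called higher over all genes tested was 2.15%. Log2 fold changes were above 0 in 78 of 84 nuclear oxidative phosphorylation genes (median 0.27), 38 of 39 proteasome genes (0.28), all 28 ribosome biogenesis genes (0.30) and 24 of 27 glycolysis genes (0.24), against 46.3% of all genes tested, and the counts called higher were 5, 0, 1 and 0. The first count was 8 without day 8 D and 4 to 6 without any other mouse, and the third was 2 without control A, control D or day 8 D. Atp5g1, a subunit of the ATP synthase ring, was the largest of the first list, with Ndufb6, Cox5a, Uqcrq and Cox5b after it, at 64.2 to 69.8 CPM against 103 to 116 CPM (log2 fold change 0.71, edgeR adjusted p = 4.12e-05), and Rrp12, a ribosome assembly factor, was the 1 of the third (0.55, adjusted p = 0.000436). Cytosolic ribosomal proteins, whose translation rather than transcription is the known mTORC1 target, had a median of 0.06 with 2 of 76 called, Rps2 (0.58) and Rplp0 (0.53). The call of Rplp0 was lost without day 8 A or day 8 C (adjusted p up to 0.0389, fold under the threshold).

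**Figure D2:**
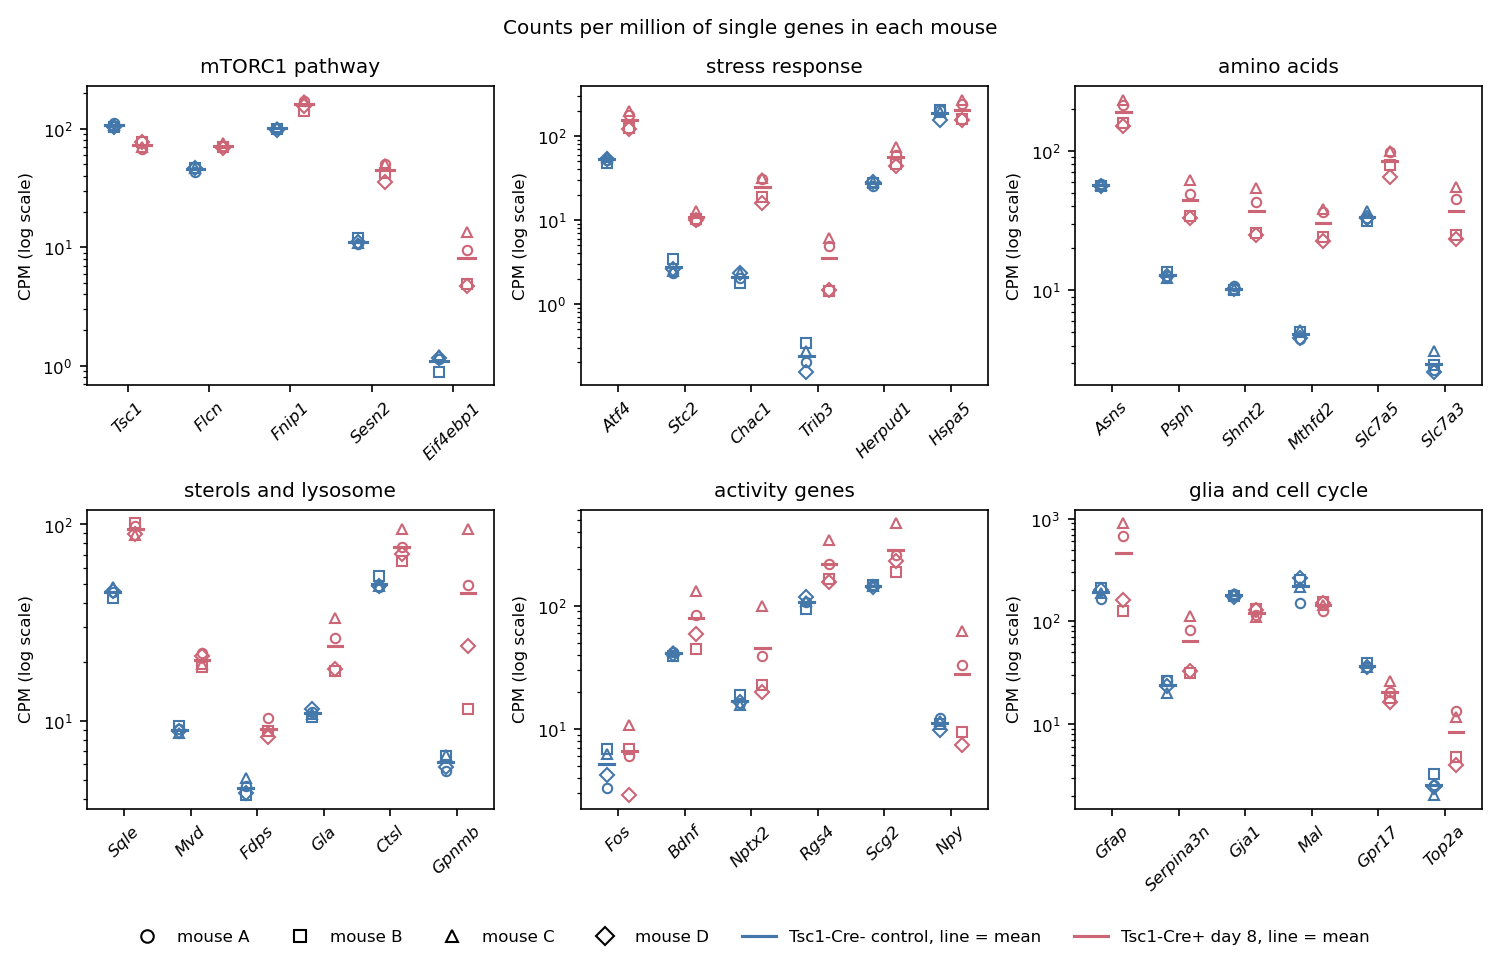
CPM on a log scale of single genes in each mouse, controls in blue and day 8 mice in red, with marker shapes for mice A to D and short lines for the group means. Sterol genes form tight groups above the controls, whereas Npy, Nptx2 and Gfap are high in day 8 mice C and A and near the controls in B and D.

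Some delayed activity genes were high in some day 8 mice and near control in others, unlike the immediate early genes as a list. Fos, the classical immediate early gene, was at 3.31, 6.86, 6.24 and 4.196 CPM in the controls and 6.01, 6.86, 10.8 and 2.89 CPM on day 8, with full overlap and no call (log2 fold change 0.36, SE 0.34, edgeR adjusted p = 0.524). Of 26 tested immediate early genes 4 were called higher (Maff, Fosl2, Gadd45g and Jun, median of the list 0.09). The median log2 CPM of the list minus the control mean was -0.202 to 0.188 in the controls. On day 8 it was 0.0169, 0.304, 0.184 and -0.0704. Jun was at 51.9 to 65.7 CPM in the controls and 88.8, 86.1, 64.9 and 90.7 CPM on day 8, lowest in C. The 4 calls fell to 0 without control A or day 8 A, 1 without control D and 2 without control C, and it was 3 without control B, day 8 B or day 8 C and 5 without day 8 D. Among these 4 promoters, Gadd45g held a CARE and Maff a full cAMP response element.

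Of 24 tested delayed activity genes and growth factors, 6 were called higher and 1 lower, with a median of 0.36. Nptx2, a pentraxin released at excitatory synapses, was at 16.3, 18.9, 15.8 and 16.5 CPM in the controls and 39.5, 22.9, 99.8 and 20.1 CPM on day 8. Mouse C was far above D, which lay just above the highest control (log2 fold change 1.43, SE 0.42, edgeR adjusted p = 0.0467). Bdnf, the brain-derived neurotrophic factor, was at 42.0, 39.3, 42.9 and 40.5 CPM and then at 84.6, 44.8, 132 and 59.6 CPM (0.96, adjusted p = 0.0322).

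Both calls were lost without any 1 control or without day 8 A, with an adjusted p of up to 0.113 for Nptx2 and 0.0839 for Bdnf. Rgs4, a brake on G protein signalling, was called without any 1 mouse (log2 fold change 1.03, edgeR adjusted p = 0.00912), from 94.9 to 117 CPM to 217, 166, 341 and 156 CPM. The number of genes of this list called higher was 2 without control A, B or C, 1 without control D or day 8 A, 4 without day 8 C, 8 without day 8 B and 9 without day 8 D.

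Peptides moved both ways. Of 25 tested neuropeptide and granin genes 3 were called higher and 2 lower (median 0.20). The higher calls were 1 without control D, 5 without day 8 B or D and 2 or 3 without any other mouse, and the lower calls were 0 without control A, 1 without control B, control D, day 8 A or day 8 C, and 2 otherwise. Scg2, a secretory granule protein, was at 148, 147, 144 and 141 CPM in the controls and 258, 187, 470 and 231 CPM on day 8 (log2 fold change 0.98, edgeR adjusted p = 0.0168; 0.0533 at most, without control D or control C). The granin Chga rose by 0.76 and Vgf by 0.64, the latter with an overlap of the groups and a call lost in 5 of the 8 fits without 1 mouse. Pdyn, the precursor of the dentate opioid dynorphin, fell together with the receptor gene Npy2r (-0.52), from 8.58 to 11.4 CPM to 4.46, 6.22, 3.05 and 7.96 CPM (-0.92, adjusted p = 0.0271; up to 0.0851 without control A, B or D or day 8 A). Npy, neuropeptide Y, did not pass the test, at 9.83 to 12.4 CPM in the controls and 32.8, 9.52, 62.8 and 7.38 CPM on day 8 (1.33, SE 0.54, adjusted p = 0.131): A and C stood far above the controls and B and D below them.

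The ion channel and receptor lists had medians of -0.11 to -0.01. Of 85 tested potassium channel subunits 4 were called higher (4.71%) and 1 lower (1.18%), with a median of -0.01. Over all genes tested these shares were 2.15% and 1.84%. Of 36 sodium and calcium channel subunits 1 was called higher, Cacna1f (2.78%), and of 15 GABA-A and 26 glutamate receptor subunits none was called. Kcnj4, an inward rectifier, was called without any 1 mouse, at 53.04, 54.02, 59.9 and 54.9 CPM in the controls and 85.6, 97.8, 83.2 and 93.2 CPM on day 8 (log2 fold change 0.70, SE 0.06, edgeR adjusted p = 0.000165). Its order over the mice, with B and D highest, differed from that of the stress response genes. Kcnip2, which modulates A-type channels, was at 120 to 141 CPM and then 80.4, 106, 63.7 and 109 CPM (-0.53, adjusted p = 0.0322), a call lost in 6 of the 8 fits without 1 mouse. The calls of Kcnk12 and Kcnip3 were lost in 6 and 5 of these fits, Kcnq1 was the last of the list at 0.51, and between 1 and 3 members were called higher without any 1 mouse. Gria1, an AMPA receptor subunit, was at 1169 to 1411 CPM in the controls and 967 to 1147 CPM on day 8 (-0.21, adjusted p = 0.0907).

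Cell cycle genes were higher in day 8 mice A and C. Of 22 tested 8 were called higher and none lower (median 0.64). Top2a, a topoisomerase of dividing cells, was at 2.58, 3.27, 2.04 and 2.45 CPM in the controls and 13.4, 4.76, 11.7 and 4.02 CPM on day 8 (log2 fold change 1.71, SE 0.36, edgeR adjusted p = 0.0115; up to 0.0434 without any 1 mouse). Cenpf, a kinetochore protein, was at 1.89 to 3.03 CPM and then at 8.1, 3.77, 7.52 and 3.59 CPM (1.18, adjusted p = 0.0183; lost without control C or D or day 8 A). Mki67, a proliferation marker, went from 11.1 to 14.9 CPM to 23.3, 15.3, 24.1 and 18.3 CPM (0.64, adjusted p = 0.0154; 0.0537 at most, its call lost without control C or day 8 A). The list level, the median log2 CPM of its members minus the control mean, was 0.85, 0.25, 0.87 and 0.12 in the day 8 mice. Leaving out 1 mouse gave 4 calls without control A or B or day 8 C, 1 without control C or day 8 A, 2 without control D, 7 without day 8 B and 12 without day 8 D.

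Of 19 tested p53 target and apoptosis genes 4 were called higher, Cdkn1a, Bbc3, Hrk and Bax (median 0.13), 2 without day 8 A. Cdkn1a, the cell cycle inhibitor p21, was at 0.840 to 1.28 CPM and then 4.39, 1.67, 5.30 and 1.18 CPM, with D inside the control range and the call (edgeR adjusted p = 0.0302) lost in 6 of the 8 fits without 1 mouse. Of 18 tested oxidative stress and metallothionein genes 1 was called higher and 1 lower (5.56% each, median 0.03). Over all genes tested these shares were 2.15% and 1.84%. The heme oxygenase Hmox1 rose from 2.67 to 3.46 CPM to 12.9, 8.43, 19.5 and 6.96 CPM (1.95, edgeR adjusted p = 0.00181). Nqo1 was at 3.63 to 4.16 CPM in the controls and 2.23 to 3.21 CPM on day 8 (-0.54, edgeR adjusted p = 0.0324), a call lost in 6 of the 8 fits without 1 mouse. No interferon-stimulated gene of 24 and no cytokine or chemokine of 12 tested was called, nor any of 20 homeostatic microglial markers. Since 3.99% of all genes tested were called, a list this short without a call, here or elsewhere, says little.

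Astrocyte markers split by state and by mouse. Of 24 reactive astrocyte genes 2 were called higher, Serpina3n and Fbln5, although the median was 0.68. Gfap, the astrocytic intermediate filament, was at 165, 211, 189 and 203 CPM in the controls and 679, 127, 902 and 160 CPM on day 8. Mice A and C were far above the controls and B and D below the lowest control, so that the mean of 467 ± 385 CPM (SD, n = 4) against 192 ± 20.4 did not pass the test (log2 fold change 1.28, SE 0.52, edgeR adjusted p = 0.127). Serpina3n, a protease inhibitor of reactive astrocytes, was at 20.2 to 27.02 CPM and then at 83.01, 31.6, 112 and 33.1 CPM (1.42, adjusted p = 0.0247; up to 0.0757 without any 1 control or without day 8 A). The summed CPM of the 24 markers was 363 to 439 in the controls and 1029, 318, 1446 and 374 on day 8. Gfap alone supplied 679 of the 1029 in A and 902 of the 1446 in C, so this sum largely follows Gfap. Without day 8 B, 8 of the 24 were called, without day 8 D 5, and without any control or day 8 A 1.

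Among 16 tested markers of homeostatic astrocytes 2 were called lower and none higher, 4 had a log2 fold change above 0, the median was -0.24, and the summed CPM was 7767 to 8316 in the controls and 6247 to 7263 on day 8, with no overlap. Gja1, which encodes the gap junction protein connexin 43, was at 187, 177, 184 and 171 CPM in the controls and 116, 131, 111 and 128 CPM on day 8 (log2 fold change -0.56, SE 0.06, edgeR adjusted p = 0.000452). Ndrg2 fell by 0.52 (adjusted p = 0.00222), a call lost without control D or day 8 A. Both calls were lost with all 24 mice in the edgeR fit, which left 0 of 16. Aqp4, the astrocytic water channel, was at 168 to 170 CPM in the controls and at 171, 107, 252 and 149 CPM on day 8.

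Markers of oligodendrocytes were lower on day 8, with a wide spread of the controls. All 14 tested markers of mature oligodendrocytes had a log2 fold change under 0 (median -0.39), and 4 were called lower, Mal, Opalin and Cnp among them. Mal, a myelin membrane protein gene, was at 150, 251, 214 and 267 CPM in the controls and 127, 154, 144 and 150 CPM on day 8, with control A inside the day 8 range (log2 fold change -0.62, SE 0.15, edgeR adjusted p = 0.0201; up to 0.0683, lost without control B or D or day 8 A). The count of mature markers called was 8 without control A and 0 without control B, control D or day 8 A.

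Some markers of oligodendrocyte precursors were lower too. Gpr17, which marks committed precursors, was at 35.9, 39.0, 35.7 and 36.3 CPM in the controls and 20.7, 18.1, 26.3 and 16.5 CPM on day 8, and it was called without any 1 mouse (log2 fold change -0.85, SE 0.12, edgeR adjusted p = 0.00172). With Bmp4, Enpp6 and Neu4 it made 4 of 10 tested, 2 without control B, C or D or day 8 A or D, whereas Pdgfra, the receptor that marks the precursor pool, was at 71.1 to 76.7 CPM and 65.6 to 73.9 CPM (-0.11, adjusted p = 0.166). With all 24 mice in the edgeR fit, Gpr17 was not called, nor was any other of the 10, and 1 of the 14 mature markers was.

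Neuronal markers gave few calls. Camk2a, whose regulatory sequence drives Cre, was at 1583 to 2212 CPM in controls and 1297 to 2201 CPM on day 8 (log2 fold change -0.07, edgeR adjusted p = 0.807), none of 12 pyramidal cell markers of CA1 to CA3 was called, and Gad1, which marks interneurons, was at 205 to 224 CPM and 192 to 232 CPM. Neurod2, a factor of excitatory neurons, rose from 76.4 to 81.2 CPM to 155, 114, 135 and 92.4 CPM (0.66, edgeR adjusted p = 0.00728). It was the 1 called of 8 tested excitatory neuron markers, whose median log2 fold change was 0.05. In the dentate granule cell list 5 of 6 markers were below 0 (median -0.29). Their summed CPM was 363.8 to 402.9 in the controls and 233.6 to 362.7 on day 8. The 1 called was Trpc6, a cation channel, at 64.7, 65.8, 66.8 and 64.4 CPM in the controls and 34.5, 36.5, 33.1 and 64.0 CPM on day 8. Mouse D was at the control level and the other 3 far below it (log2 fold change -0.64, adjusted p = 0.0371, and 3.31e-05 without D; up to 0.11 without any 1 other mouse). Nos1 was the 1 interneuron marker of 20 called (-0.58, adjusted p = 0.025), in 3 of the 8 fits without 1 mouse. Of the 20 interneuron markers 17 were below 0 (median -0.175), and their summed CPM was 968 to 1059 in the controls and 841 to 886 on day 8. None of 9 markers of immature neurons and progenitors, 13 of endothelial cells, 9 of pericytes and smooth muscle, 6 of ependymal cells and 9 of meningeal fibroblasts was called. The lipase Lpl was the 1 of 10 markers of activated microglia called (0.52, in 2 of the 8 fits without 1 mouse), while 7 of the 10 were below 0 (median -0.17). The summed CPM of the 10 was 736 to 818 in the controls and 545 to 657 on day 8. Such a sum follows the most abundant members of a list, which here includes Apoe, so it need not reflect microglia. Pdk4 was the 1 of 13 glucocorticoid response genes called (-0.53, lost without control B or day 8 C).

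Tissue from outside the hippocampus was present to different extents. Ttr, the choroid plexus transthyretin gene, was at 18.7, 1518, 40.3 and 29.2 CPM in the controls and 9.02, 6.55, 19.6 and 588 CPM on day 8, and the summed CPM of the 12 choroid plexus markers was 1844 in control B, 744 in day 8 D and 43.3 to 90.4 in the other 6 mice. Markers of thalamus and striatum, led by Prkcd, were highest in control D (181 CPM summed) and day 8 C (192), against 77.5 to 110 in the rest. With the Ttr level as a covariate 716 genes were called, 396 higher and 320 lower. The part of this tissue in the single results was not tested beyond that fit and the fits without 1 mouse.

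**Figure D3:**
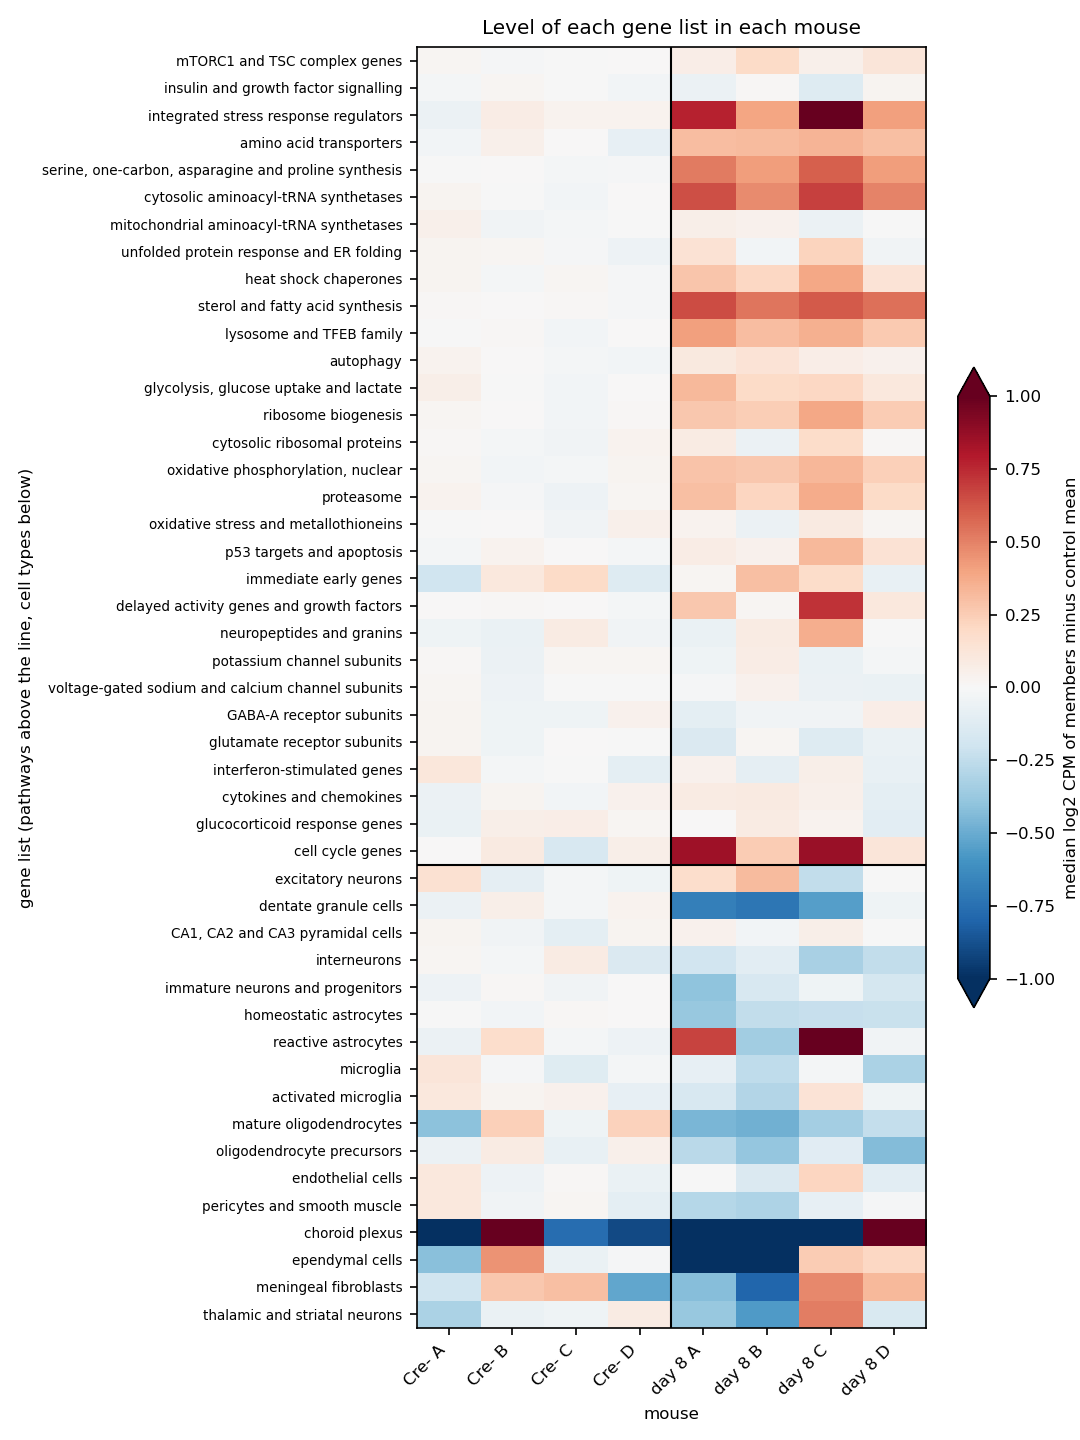
Level of each gene list (rows) in each mouse (columns), as the median over members of log2 CPM minus the mean of the controls, with red above and blue below the controls and the colour ending at -1 and 1. The sterol row is even over the 4 day 8 mice, the stress response and cell cycle rows are stronger in A and C, and the reactive astrocyte row changes sign between mice.

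The largest changes outside these lists included Esr1, whose reads the transgene may supply. Esr1, the estrogen receptor alpha gene, was at 4.03, 3.35, 2.71 and 2.64 CPM in the controls and 30.3, 28.3, 32.5 and 27.6 CPM on day 8 (log2 fold change 3.22, SE 0.13, edgeR adjusted p = 1.41e-06), and it lay between 27.1 and 38.6 CPM in all 20 Cre-positive mice. Counts per gene cannot tell reads of Esr1 apart from any reads of the estrogen receptor domain of the CreERT2 transgene. This value may therefore measure carriage of the transgene as well, which was not tested. Arsi, an arylsulfatase gene next to Camk2a, went from 1.38 to 2.02 CPM to 8.71 to 11.9 CPM (2.59, adjusted p = 1.09e-05), and the part of the transgene in this was not tested. Cyb5r1, a reductase of the endoplasmic reticulum and mitochondria, rose from 11.8 to 13.4 CPM to 76.05, 40.03, 90.8 and 42.95 CPM (2.31, adjusted p = 0.000327), in the order of the stress response genes.

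Gm8369 had another order of the mice: at 0.202 to 0.336 CPM in the controls, it reached 0.760, 4.29, 0.376 and 5.94 CPM, highest in B and D (log2 fold change 3.44, edgeR adjusted p = 0.0155; 0.0524 at most, lost without control B, C or D). The widest ranges over the day 8 mice were those of Gm8369, Gpnmb, Fst, Aldh1l2 and AC102492.3, the last at 0.35 to 0.654 CPM in the controls and 3.45, 0.834, 5.06 and 0.648 CPM on day 8, with D inside the control range (2.30, adjusted p = 0.0308; lost in 6 of the 8 fits without 1 mouse). The falls were smaller. Mndal, an interferon-inducible gene that overlaps the similar Ifi203 and is therefore uncertain, had the largest, from 2.78 to 4.21 CPM to 0.556 to 1.56 CPM (-1.73, adjusted p = 0.00264). The gene BC030499 fell from 12.7 to 15.7 CPM to 3.25, 6.60, 3.10 and 5.98 CPM (-1.63, adjusted p = 0.00144).

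Fst, the activin antagonist follistatin, was at 1.61 to 2.39 CPM in the controls and 0.283, 0.730, 0.226 and 1.44 CPM on day 8 (-1.61, edgeR adjusted p = 0.0388), and its call held only without day 8 D among the 8 fits without 1 mouse (0.0992 at most). Gmnc, a regulator of multiciliated cells, was at 3.53 to 6.95 CPM and then at 0.865 to 3.22 CPM (-1.44, adjusted p = 0.0272; lost in 4 of these fits). Gm22513, listed as a small nuclear RNA gene, was at 171 to 188 CPM and 67.0 to 82.4 CPM (-1.30, adjusted p = 6.89e-06); such genes have close copies, so its reads are uncertain. The long noncoding RNA genes Gm26644 (-1.42), Gm11681 (-1.35) and Gm47469 (-1.34) and the coding genes Gm14569 (-1.30) and Vwa5b1 (-1.28) completed the 10 largest falls, the last called in 3 of the 8 fits.

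The day 8 mice were more spread than the controls. The distance of a mouse from the mean of the other 3 of its group, over the log2 CPM of all genes tested, was 56.3 ± 3.06 (SD, n = 4) in the controls and 66.7 ± 6.01 on day 8, a ratio of 1.19 (two-sided exact permutation test, p = 0.0286). Each distance is taken to mice of the same group, so the 4 distances of a group are not independent. The test shuffled them as fixed values, so its p-value is only a rough description. The biological coefficient of variation, the spread between mice beyond counting noise, was 11.5% in the controls and 17.4% on day 8. The SD of log2 CPM was larger on day 8 in 65.7% of all genes tested and in 73.3% of the genes called. The ratio stayed between 1.12 and 1.24 without any 1 mouse, but the same exact permutation test over the 500 genes of highest variance gave p = 0.143 (ratio 1.19), and over the variance-stabilized values of DESeq2 p = 0.0857 (1.29), so the result depends on this choice. The same limit holds for these p-values.

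**Figure D4:**
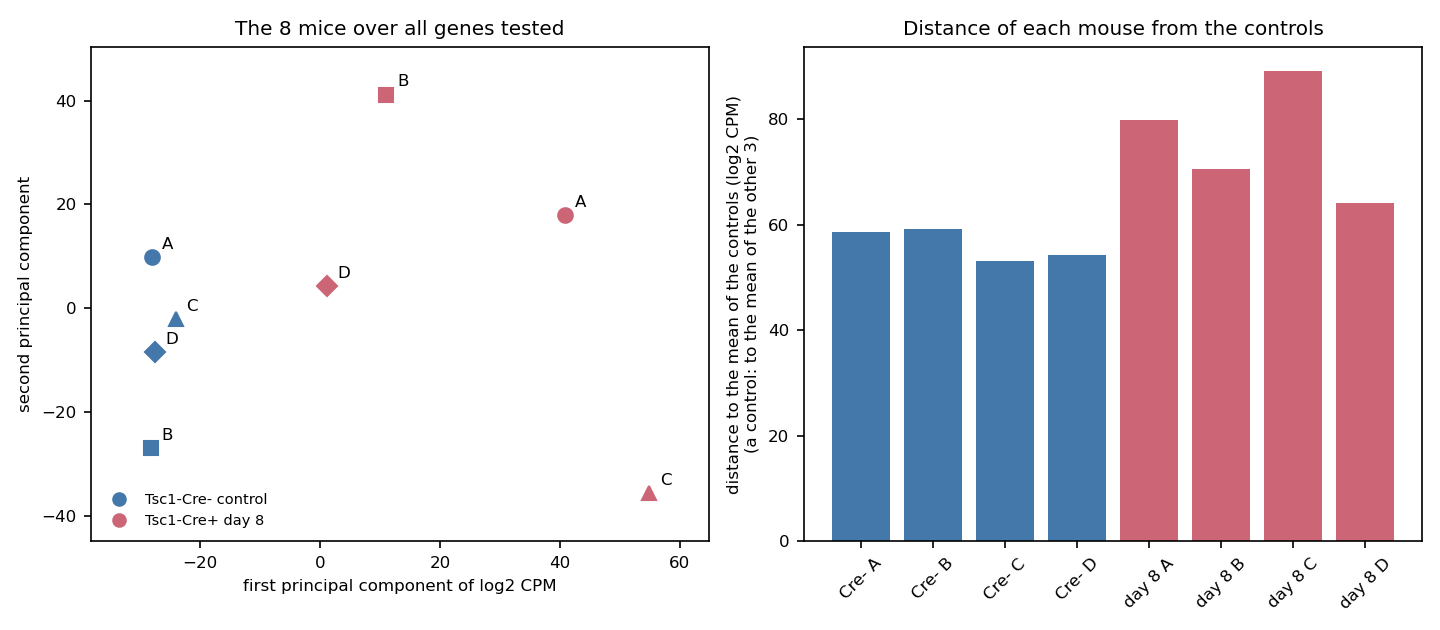
Left, the first and second principal components of log2 CPM over all genes tested, with controls in blue, day 8 mice in red and letters for the mice. Right, the distance of each mouse from the mean of the controls; day 8 C at 89.2 and A at 79.9 lie farthest, and D at 64.0 lies nearest of the day 8 mice.

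The day 8 mice were ordered in the same way in many genes. On the first principal component, with 32.4% of the variance, the controls lay between -28.2 and -24.1 and the day 8 mice at 40.8, 11.1, 54.9 and 1.09. The distance to the mean of the controls was 79.9, 70.5, 89.2 and 64.0 on day 8, against 53.2 to 59.2 for a control to the other 3. Mice A and C were the 2 highest of the day 8 mice in 321 of the 539 genes called higher (59.6%) and the 2 lowest in 213 of the 462 called lower (46.1%), against 22.4% and 22.2% of all genes tested. Mouse C was the farthest from control in 53.8% of the genes called higher and D the closest in 51.4%. Mice A and C belong to different animal series, so this order did not follow the series. The mitochondrial share of the 4 mice was 4.04%, 4.21%, 3.44% and 4.36%, lowest in A and C, and its part in the order was not tested.

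How far a list followed this order differed from list to list. Mice A and C were the highest 2 in all 13 aminoacyl-tRNA synthetases called, in 8 of 11 stress response regulators, in 8 of 10 one-carbon and serine genes, in 5 of 6 delayed activity genes and in 6 of 8 cell cycle genes, but in 9 of 21 sterol genes and 2 of 5 oxidative phosphorylation genes. The sterol list level was 0.65, 0.54, 0.62 and 0.55 in the 4 mice. That of the stress response regulators was 0.77, 0.39, 1.03 and 0.41, and that of the reactive astrocyte genes 0.67, -0.35, 1.29 and -0.04. Every day 8 mouse was thus above every control on the sterol, stress response and amino acid lists, whereas on the reactive astrocyte list B was under all 4 controls. No test of these differences between lists was made.

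Beside the other groups, the mean day 8 levels of the genes below lay between those of days 6 and 13. They are given as CPM scaled over all 24 mice, so they differ slightly from the values above, and without a test, since by the file names the other groups come from other animal series. Tsc1 averaged 106 ± 3.26 (SD, n = 4) in the controls and, in the order of the days 4, 6, 8 and 13, 78.96 ± 2.57, 72.8 ± 2.19, 72 ± 4.66 and 62.7 ± 5.93, with 67.4 ± 1.27 under rapamycin. Asns was at 56.3 ± 1.05, 62.3 ± 2.85, 94.3 ± 10.05, 186 ± 40.3 and 248 ± 66.5 in the same order, and at 55.8 ± 4.65 with rapamycin. Sqle reached 75.7 ± 4.35 on day 6 and 93.4 ± 6.60 on day 8 from 45 ± 2.31 in the controls, and was at 115 ± 24.9 on day 13 and 30.01 ± 2.73 with rapamycin.

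The means of an astrocyte and an activity gene moved later. In the same order, Gfap averaged 191 ± 20.7, 179 ± 38.4, 152 ± 9.19, 462 ± 379.7 and 721 ± 448 CPM, and Nptx2 16.8 ± 1.41, 18.3 ± 0.411, 18.5 ± 2.18, 45.1 ± 36.6 and 204 ± 151 CPM. Day 8 mouse C lay within the range of the day 13 mice for both genes, 365 to 1346 CPM for Gfap and 49.1 to 403 CPM for Nptx2, and mice B and D lay below it.

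**Figure D5:**
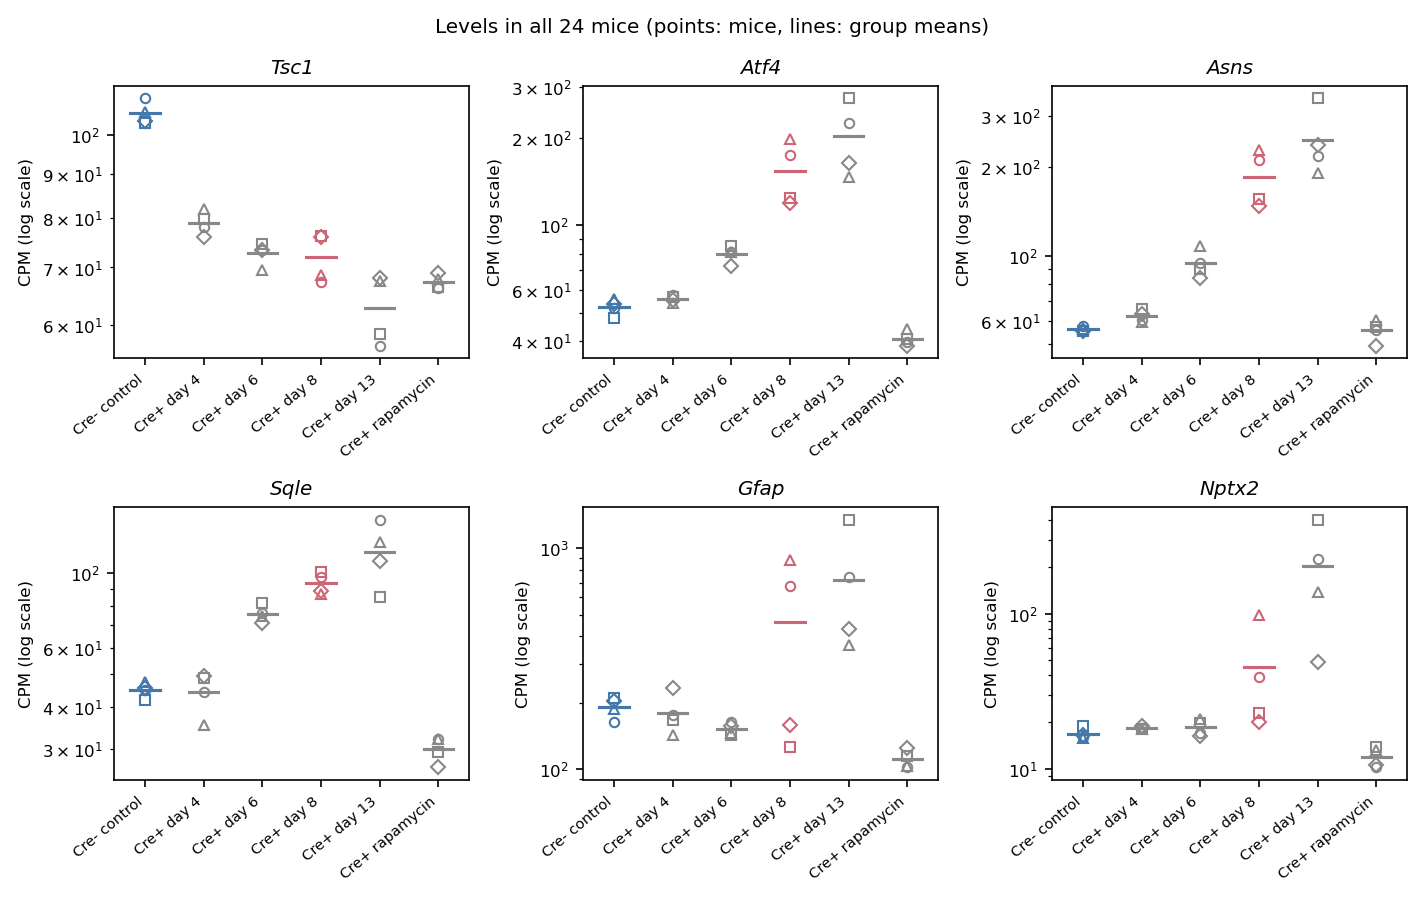
CPM on a log scale of 6 genes in all 24 mice by group, controls in blue, day 8 in red and the other groups in grey, with lines for the group means. Asns and Sqle are already above the controls on day 6, whereas Gfap is above them in day 8 mice A and C and Nptx2 in all day 8 mice, and both are above them in all day 13 mice.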

How the data were processed

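Hippocampal RNA of 24 mice was sequenced, and the values used are the counts of reads per gene that the authors deposited, 1 table for each mouse, neither normalized nor filtered. Per the submitters' processing notes the tools were cutadapt 1.16.5, STAR 2.7.2b and featureCounts 1.6.4, on mouse build GRCm38; whether counting used the strand is not given in the sources used here, so genes that overlap another are uncertain. Of 55385 identifiers 55144 were found in GENCODE M21, which gave the names and positions.

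The members and gene lists were chosen with earlier results of these data known. The 8 day 8 and control mice were fitted in R 4.3.3 with edgeR 4.0.16 (filterByExpr, TMM, quasi-likelihood test, Benjamini-Hochberg adjustment over all 25085 genes), and calls were made at the 2 thresholds given above. log2 CPM used a prior count of 2. Genes were named by a rule: Tsc1, then, among calls with a mean CPM of at least 1, the 10 largest rises and 10 largest falls without overlap of the groups, up to 4 called members of each list by size of change, and the 5 widest day 8 ranges, and also the first member of each list whatever its value. A few genes that the rule names are not reported here. Any other gene named was chosen after its values were seen. DESeq2 1.42.0, other filters, scalings, covariates and blocks, and fits without each mouse were alternatives. On simulated counts the edgeR fit recovered 87.5% of 200 genes changed 2-fold in this comparison, with 5 unchanged genes called among 24559. The simulation drew genes independently, gave both groups the same spread and changed only genes with a control mean above 1 CPM. It lacks the wider spread and the shared order of the day 8 mice, so its false calls do not carry over to these data. The edgeR p-values weigh the difference between the 2 groups against the spread between single mice. Promoters come from the RefSeq table of GRCm38.p6, which holds no entry for some members.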

Additional observations from a re-analysis of the deposited data

Results flagged for a closer look

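In 13 of 274 groups of 4 mice examined (90 genes and the gene lists, controls and day 8 apart), 1 mouse lay far from the other 3 by Dixon's test, where chance gives about 1 in 20, or 13.7. Tissue markers gave the widest gaps. Ttr was at 1518 CPM in control B (others 18.74 to 40.32) and 588.4 in day 8 D (others 6.55 to 19.56), and the choroid plexus list level was 3.05 in control B (others -1.18 to -0.759). Prkcd was at 88.48 CPM in control D (others 27.46 to 30.37) and 87.02 in day 8 C (others 9.813 to 13.12). Among the genes and lists of the comparison, Trpc6 was at 64 CPM in day 8 D (others 33.09 to 36.52) and Gria1 at 967.1 in day 8 C (others 1131 to 1147). The homeostatic astrocyte level was -0.378 in day 8 A (others -0.243 to -0.226), and the reactive astrocyte level 0.177 in control B (others -0.062 to -0.0227). Small gaps among tight controls were those of Flcn (43.2 CPM in control A, others 46.35 to 46.74), Herpud1 (25.13 in control A, others 27.68 to 28.17), Ctsl (54.49 in control B, others 48.06 to 48.83) and Gpr17 (38.97 in control B, others 35.74 to 36.25).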

How the results depend on the processing

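The number of genes called, 1001 (539 higher, 462 lower), was 1199 with DESeq2, 1008 with its size factors, 1027 without a filter, 997 with all 24 mice in the fit, 934 with the animal series as a block, 995 with Xist and 716 with Ttr as a covariate, and 993 on thinned counts. Without 1 mouse it was 586 to 1491 (357 to 762 higher, 229 to 729 lower). Mice A and B alone gave 445 (324 higher, 121 lower) and mice C and D alone 17 (16 higher, 1 lower), with 2 mice a side. With no fold minimum 3331 passed (2110 higher, 1221 lower), and with a log2 fold change over 1 277 (183 higher, 94 lower). The ratio of distances between mice was 1.188 over 500 genes and 1.289 on DESeq2's transformed values, both with p above 0.05, and 1.115 to 1.242 without 1 mouse. The causes of these shifts were not tested. The title letters do not pair the mice (correlations of same-letter deviations 0.079, -0.148, -0.022 and -0.064), and a fit with the letter as a replicate block called 797 genes, 753 of them among the 1001. Of 98 named genes called, none changed direction in any alternative; 80 were called with all 24 mice, 77 with Ttr, 89 with the block, 64 to 93 without 1 mouse, 60 with mice A and B alone and 11 with mice C and D alone.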
